A study of Mus musculus with 30 samples.

Results

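Genes of the blood and lymphatic vessel lining were followed through the first week after myocardial infarction in the mouse heart. A set of 40 genes was taken by name from the 43629 gene identifiers measured, and all 40 were matched to a symbol and tested at each day. They fall by known role into 15 pan-endothelial genes, 6 endothelial transcription factors, 6 capillary metabolic genes, 5 genes of activated endothelium, 4 Notch genes and 4 lymphatic genes. The mice were wild-type C57BL/6J animals whose coronary artery was tied at thoracotomy (MI) or who were operated on without the tie (sham), and RNA was taken from the heart 2, 4 or 7 days later. Each of the 6 groups, MI and sham at days 2, 4 and 7, had 5 libraries. The labels give neither the age of the mice nor the part of the heart used, and a ligated heart holds infarcted, border and remote muscle. Whether each replicate was its own animal is not stated, so p-values rest on a spread among libraries that may be technical. Libraries 1 to 5 below are the replicate numbers of the labels.

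Library totals ran from 7841930 to 14070017 counts, and 18668 to 20905 genes were detected per library. Levels are given as CPM, read counts scaled to a common library size with TMM factors, which correct the library totals for a shift in the most abundant transcripts. The lowest count of a member in any library was 7, for Selp, so each member was above the 3 counts that a count of 0 would allow (0.213 to 0.383 CPM by library). Lung transcripts were present in 6 libraries: Sftpc, which encodes a lung surfactant protein, and Scgb1a1, a product of airway club cells, summed to 168 to 1642 CPM of the library total in MI day 7 replicate 2, sham day 4 replicates 2 and 3 and sham day 7 replicates 1, 2 and 3. The highest sum in the other 24 libraries was 24.0 CPM. Lung is rich in endothelium, and calls at days 4 and 7 that changed without these libraries are given both ways. Values whose call held moved too, and not all of these are given both ways. At day 7 the log2 fold change of MI over sham moved from 1.07 to 1.49 for Ecscr without the lung libraries. For Rgcc it moved from -0.16 to 0.045 without these 6 libraries. At day 7 the fit without them keeps only sham replicates 4 and 5. Over all genes 3060 were then called higher and 2705 lower, against 4119 and 3857 with all libraries of that day. Whether a call was lost through lung RNA or through fewer libraries was not tested. The library identifiers share one prefix at day 2 and another at days 4 and 7. Its meaning is not given, and it cannot be told apart from day in comparisons of day 2 with a later day.

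Endothelial cells line every vessel, and the pan-endothelial genes encode the junctions, surface sialomucins and receptors that they have in common. In the heart, capillary endothelium carries fatty acids to the myocytes, and it holds the lipase anchor, lipid binding proteins and channels that serve this transport. Endothelium exposed to inflammatory signals displays selectins and immunoglobulin-like adhesion molecules that capture leukocytes. Notch ligands and receptors set tip and stalk cell fates and arterial identity, and lymphatic endothelium is specified by the homeobox factor Prox1.

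All 5 activated endothelium genes were higher in MI at day 7, and 4 of the 6 capillary metabolic genes were lower at days 2 and 4. The 15 pan-endothelial genes went both ways at day 2, and 12 of the 15 did not pass the test at day 4 and 12 of the 15 at day 7. This depended on the scaling: by library totals alone, without TMM factors, more of the 15 passed as higher at days 4 and 7. At day 2, 12 of the 40 members were higher in MI and 11 lower, beside 24.1% and 22.2% of all 14524 genes tested (edgeR quasi-likelihood test, every call here being an adjusted p under 0.05 by Benjamini-Hochberg across the genes tested). At day 4, 10 were higher and 5 lower, beside 27.5% and 25.2% of 14410 genes. At day 7, 12 were higher and 4 lower, beside 28.4% and 26.6% of 14492 genes. The counts by role, here and below, stand beside the same shares of all genes. Ecscr, Erg, Plvap, Sele, Selp and Pdpn rose at all 3 days, and Car4, Aqp1, Aqp7 and Prox1 fell at all 3 days. No member rose at 1 day and fell at another, 6 fell at day 2 alone and 11 were called at no day. The share of all genes with such patterns over the 3 days was not counted, so these counts only describe the members. In RNA from whole tissue, fewer cells of a type and less RNA per cell cannot be told apart.

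**Figure D1:**
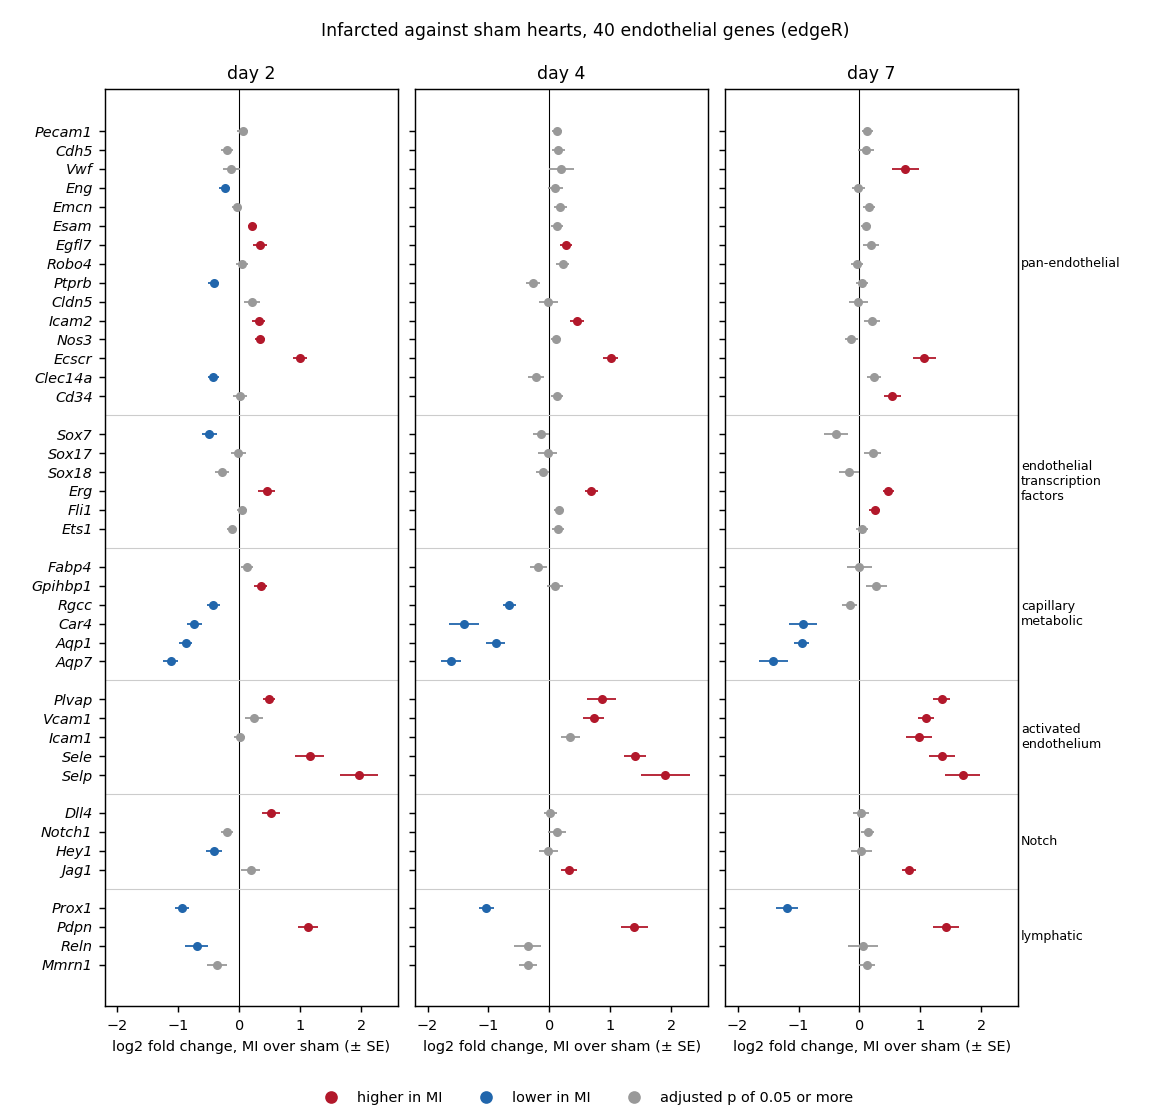
Log2 fold change of MI over sham (x axis, ± SE) for the 40 genes (y axis, grouped by role) at days 2, 4 and 7, 5 libraries per group. Red points passed the test as higher, blue as lower, grey did not pass. The activated endothelium genes lie right of 0, and Car4, Aqp1, Aqp7 and Prox1 lie left of 0 at all 3 days.

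Under TMM scaling the median log2 fold change over all genes was -0.005, 0.006 and 0.012 at days 2, 4 and 7. Scaled by library totals alone it was 0.088, 0.183 and 0.208. Higher calls were then 65.1%, 71.2% and 70.4% of all calls at days 2, 4 and 7, against 52.0%, 52.2% and 51.6% with TMM. Members called higher were then 12, 20 and 21, and members called lower 9, 5 and 4. No called member changed direction. Changes are therefore relative to the bulk of genes.

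Of the 15 pan-endothelial genes, 5 rose and 3 fell at day 2, 3 rose at day 4 and 3 rose at day 7. Their median log2 fold changes were 0.04, 0.13 and 0.13 at days 2, 4 and 7. Ecscr, a surface protein of endothelial cells, was the pan-endothelial gene with the largest change at each day and rose at all 3. Pecam1, the junction molecule CD31, Cdh5, which encodes VE-cadherin, and Emcn, the sialomucin endomucin, passed the test at no day, with log2 fold changes of 0.06, 0.13 and 0.13 for Pecam1, -0.20, 0.15 and 0.11 for Cdh5 and -0.05, 0.18 and 0.16 for Emcn at days 2, 4 and 7. With library totals alone Pecam1, Emcn and Esam were called higher at days 4 and 7. Cdh5, Cd34, Nos3 and Robo4 were then also called higher at day 4, and Clec14a, Egfl7 and Icam2 at day 7. Leaving out sham replicate 3 brought Cdh5 past the threshold at day 2, as lower, in a range of -0.26 to -0.15 over the libraries left out.

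Per kilobase of annotated exon, Eng, the TGF-beta co-receptor endoglin (ENSMUSG00000026814, chr2:32646595-32682669 in GRCm38), had the highest level among the pan-endothelial genes, 55.9 CPM per kilobase over all libraries. Cdh5 followed with 51.2 and Pecam1 with 40.2 CPM per kilobase. At day 2 Eng read 226, 235, 243, 235 and 242 CPM in MI libraries 1 to 5, against 318, 291, 256, 314 and 235 CPM in sham libraries 1 to 5. At day 4 Eng read 228, 216, 208, 225 and 239 CPM in MI libraries 1 to 5, against 285, 179, 193, 185 and 211 CPM in sham libraries 1 to 5. At day 7 Eng read 178, 209, 229.5, 205 and 186 CPM in MI libraries 1 to 5, against 193, 213, 173, 246 and 190.5 CPM in sham libraries 1 to 5. At day 2 all sham libraries but 1 lay above the MI libraries, and at day 7 the groups overlapped. At day 4, 3 sham libraries lay below all MI libraries and sham replicate 1 above them. Eng fell at day 2, with a log2 fold change of -0.24 ± 0.09 SE, adjusted p = 0.0385 in edgeR. This call was lost without any 1 of MI replicates 1 and 4 and sham replicates 1, 2 and 4. Over all libraries of the day left out in turn, whether or not the call held, the log2 fold change lay between -0.30 and -0.19. The call was also lost with library totals alone, with no filter on low counts and in the fit of all 30 libraries. At days 4 and 7 the log2 fold changes were 0.10 and -0.02, and leaving out sham replicate 1 brought Eng past the threshold at day 4 (highest value 0.23). Eng shares 61 exonic bases with Fpgs on the opposite strand, which averaged 9.95 CPM.

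Ecscr (ENSMUSG00000073599, chr18:35713086-35722356) had 5 MI values above all 5 sham values at every day. At day 2 Ecscr read 41.3, 37.0, 33.3, 35.3 and 34.9 CPM in MI libraries 1 to 5, against 16.2, 20.9, 20.9, 14.3 and 20.4 CPM in sham libraries 1 to 5. At day 4 Ecscr read 37.2, 32.7, 26.7, 39.4 and 33.3 CPM in MI libraries 1 to 5, against 16.4, 20.04, 13.5, 19.0 and 16.3 CPM in sham libraries 1 to 5. At day 7 Ecscr read 54.2, 32.0, 32.9, 32.8 and 35.5 CPM in MI libraries 1 to 5, against 19.4, 19.5, 22.5, 13.8 and 13.4 CPM in sham libraries 1 to 5. The lowest MI library of a day stood clear of the highest sham library of that day each time, and MI day 7 replicate 1 was far above the other MI libraries of that day. The log2 fold changes were 0.99, 1.003 and 1.07 at days 2, 4 and 7 (SE 0.11, 0.12 and 0.18; adjusted p in edgeR = 6.37e-06, 9.72e-06 and 0.0003).

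Vwf, which encodes von Willebrand factor, the large plasma protein that tethers platelets (ENSMUSG00000001930, chr6:125546774-125686679), rose at day 7. At day 2 Vwf read 74.8, 63.6, 93.7, 112 and 70.2 CPM in MI libraries 1 to 5, against 103, 93.8, 70.3, 96.0 and 96.2 CPM in sham libraries 1 to 5. At day 4 Vwf read 109, 73.7, 118, 105 and 156 CPM in MI libraries 1 to 5, against 112, 77.2, 139.7, 79.7 and 84.9 CPM in sham libraries 1 to 5. At day 7 Vwf read 126, 109, 241, 123 and 94.8 CPM in MI libraries 1 to 5, against 91.9, 82.9, 60.2, 95.9 and 78.8 CPM in sham libraries 1 to 5. At day 7 MI replicate 3 was far above the other libraries and MI replicate 5 lay within the sham range, and at days 2 and 4 the groups overlapped. The log2 fold change at day 7 was 0.75 ± 0.22 SE, adjusted p = 0.011 in edgeR, and it lay between 0.47 and 0.86 over the libraries left out in turn, with the lowest value without MI replicate 3. Without the libraries with lung transcripts, a fit with only sham replicates 4 and 5 at that day, it was 0.71, adjusted p = 0.118 in edgeR. The call was also lost with no filter on low counts. Platelets carry this factor too: the 6 platelet markers summed to 35.2 to 154 CPM in MI and 20.7 to 40 CPM in sham libraries at day 7, to 89.0 to 169 CPM in MI and 25.4 to 35.5 CPM in sham libraries at day 4 and to 104 to 157 CPM in MI and 29.4 to 46.5 CPM in sham libraries at day 2. Of 4 platelet markers tested, 3, 3 and 2 were higher at days 2, 4 and 7, and Gp6 had no count in some libraries. The markers went both ways at day 7. Median CPM was higher in MI than in sham libraries for Pf4 (38.2 against 22.6), Itga2b (3.96 against 2.47), Gp9 (0.543 against 0.415) and Gp6 (0.187 against 0). It was lower in MI for Ppbp (1.87 against 3.65) and Gp1ba (3.15 against 4.31). The part of platelets in the Vwf result was not tested.

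Cd34, a sialomucin of endothelium and of some stromal cells, averaged 259 ± 48.6 CPM in MI, against 178 ± 22.4 CPM in sham libraries at day 7 (SD, n = 5 each), a log2 fold change of 0.54 ± 0.14 SE, adjusted p = 0.00528 in edgeR. Fibroblast markers moved with it: all 6 of 6 were higher at day 7 and their sum ran from 5200 to 11400 CPM in MI and 1580 to 2730 CPM in sham libraries, a part that was not tested. Icam2, a constitutive adhesion molecule, rose at days 2 and 4 (0.32 and 0.46). Egfl7, a secreted vascular protein, also rose at those days (0.34 and 0.28). Nos3, the endothelial nitric oxide synthase (0.34 ± 0.09 SE, adjusted p = 0.0049, edgeR), and Esam, a junction molecule (0.21), rose at day 2. Ptprb, the phosphatase of endothelial junctions (-0.42 ± 0.09 SE, adjusted p = 0.00115, edgeR), and Clec14a, an endothelial lectin (-0.43 ± 0.10 SE, adjusted p = 0.00203, edgeR), fell at day 2, each without overlap of the groups.

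Several of these calls were small and rested on single libraries. The range in brackets after such a call, here and below, spans all fits with 1 library left out, whether or not the call changed. At day 2, Icam2 was lost without any 1 of MI replicates 2 and 3 and sham replicates 2, 3 and 5 (log2 0.26 to 0.41), Egfl7 without any 1 of MI replicates 1 and 3 and sham replicate 4 (0.24 to 0.41) and Esam without any 1 of MI replicates 2 and 4 and sham replicate 5 (0.18 to 0.25). Esam was also lost with no filter on low counts and in the fit of all 30 libraries. The Egfl7 call of day 4 was lost without any 1 of MI replicates 1 and 4 and sham replicates 2, 3 and 4 (0.22 to 0.33) and without the libraries with lung transcripts (0.18, adjusted p = 0.191 in edgeR), and also in DESeq2 and in the fit of all 30 libraries. Egfl7 also shares 64 bases with Agpat2 on the opposite strand, which averaged 63.8 CPM, and the strand setting of the counting is not given in the sources used here. Without the lung libraries Ptprb (-0.37, adjusted p = 0.0209) and Clec14a (-0.34, adjusted p = 0.0476) passed as lower at day 4 in edgeR. Ptprb did so too in DESeq2, with median-ratio factors, in the fit of all 30 libraries and without any 1 of MI replicate 5 and sham replicate 2 (-0.35 to -0.21), and Robo4, a guidance receptor, passed as higher at day 4 without sham replicate 5 (highest value 0.29). At day 7, Icam2 passed as higher without MI replicate 3 (highest 0.31) and Clec14a without MI replicate 1 (highest 0.30). Cldn5, the tight junction claudin, and Robo4 were called at no day, with log2 fold changes of 0.21, -0.02 and -0.02 for Cldn5 and 0.04, 0.22 and -0.04 for Robo4.

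**Figure D2:**
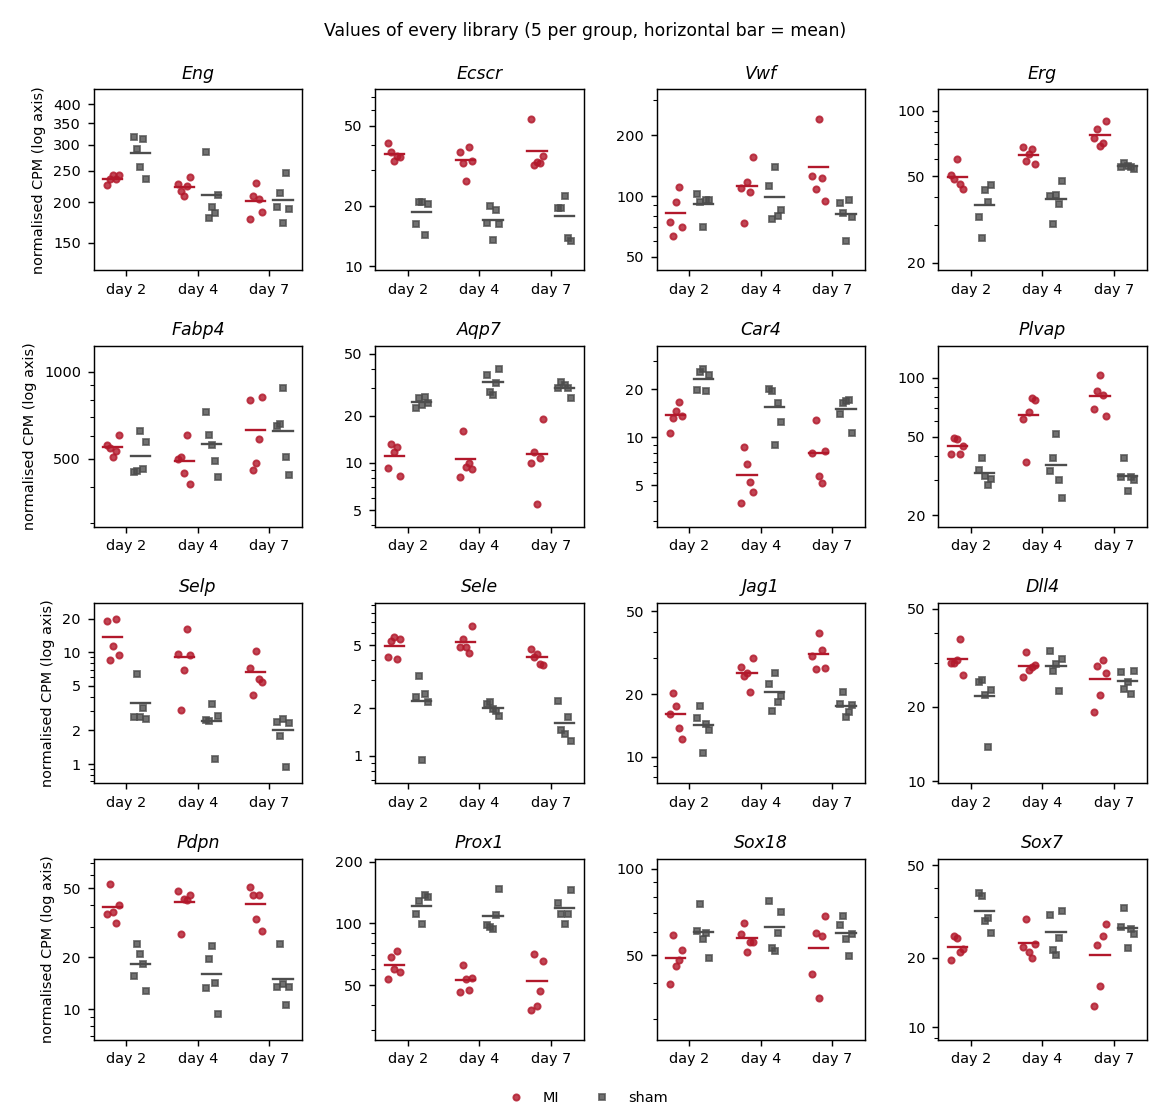
TMM-scaled CPM (log y axis) of 16 genes in every library, by day, with red circles for MI, grey squares for sham and a horizontal bar at the mean of 5 libraries. The MI and sham points are apart at every day for Ecscr, Aqp7, Sele, Pdpn and Prox1, and they overlap at every day for Eng, Vwf, Fabp4 and Sox18.

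Among the 6 endothelial transcription factors, 1 rose and 1 fell at day 2, 1 rose at day 4 and 2 rose at day 7. Erg, an ETS factor that maintains endothelial identity (ENSMUSG00000040732, chr16:95359169-95586593), was higher at each day. At day 2 Erg read 50.7, 48.3, 60.2, 46.1 and 43.6 CPM in MI libraries 1 to 5, against 32.5, 26.0, 43.3, 38.0 and 45.5 CPM in sham libraries 1 to 5. At day 4 Erg read 68.1, 58.5, 63.3, 66.8 and 56.8 CPM in MI libraries 1 to 5, against 40.6, 30.3, 41.2, 37.5 and 47.4 CPM in sham libraries 1 to 5. At day 7 Erg read 75.0, 82.2, 68.7, 71.0 and 89.5 CPM in MI libraries 1 to 5, against 55.5, 57.7, 55.7, 55.3 and 53.9 CPM in sham libraries 1 to 5. The groups stood apart at days 4 and 7, and at day 2 the lowest MI library lay below the highest sham library. Sham values at day 7 were above every sham value of the earlier days. The log2 fold changes were 0.45, 0.68 and 0.47 at days 2, 4 and 7 (SE 0.14, 0.11 and 0.09; adjusted p in edgeR = 0.0141, 9.4e-05 and 0.000601).

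Sox18, an SRY-related factor of blood and lymphatic endothelium (ENSMUSG00000046470, chr2:181669836-181671640), had the highest level of the 6 factors, 35.1 CPM per kilobase. At day 2 Sox18 read 39.8, 58.6, 45.8, 47.9 and 52.2 CPM in MI libraries 1 to 5, against 60.7, 75.1, 57.0, 59.8 and 48.9 CPM in sham libraries 1 to 5. At day 4 Sox18 read 59.4, 64.9, 51.1, 55.7 and 55.7 CPM in MI libraries 1 to 5, against 77.4, 53.1, 51.8, 59.6 and 70.6 CPM in sham libraries 1 to 5. At day 7 Sox18 read 42.8, 59.9, 35.4, 58.4 and 68.3 CPM in MI libraries 1 to 5, against 63.8, 68.4, 57.0, 49.5 and 59.2 CPM in sham libraries 1 to 5. The groups overlapped at each day, and the widest spread was among the MI libraries of day 7. The log2 fold changes were -0.28, -0.11 and -0.18 (adjusted p in edgeR = 0.0612, 0.424 and 0.384), and at day 2 Sox18 passed as lower without any 1 of MI replicate 2 and sham replicate 5 (-0.37 to -0.19).

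Sox7, of the same family (ENSMUSG00000063060, chr14:63943673-63950732), fell at day 2. At day 2 Sox7 read 19.4, 24.7, 24.4, 21.2 and 21.7 CPM in MI libraries 1 to 5, against 38.0, 36.9, 28.7, 29.7 and 25.6 CPM in sham libraries 1 to 5. At day 4 Sox7 read 22.1, 29.2, 21.1, 20 and 23.0 CPM in MI libraries 1 to 5, against 30.4, 21.6, 20.5, 24.4 and 31.6 CPM in sham libraries 1 to 5. At day 7 Sox7 read 12.4, 22.7, 15, 24.7 and 27.9 CPM in MI libraries 1 to 5, against 27.0, 32.8, 21.9, 26.6 and 25.2 CPM in sham libraries 1 to 5. At day 2 every sham library lay above every MI library, and at days 4 and 7 the groups overlapped. The log2 fold change was -0.49 ± 0.12 SE, adjusted p = 0.00319 in edgeR at day 2, -0.14 at day 4 and -0.38 at day 7, where it passed without MI replicate 5 (lowest value -0.53). Sox17, the arterial member of the family, passed at no day (-0.02, -0.03 and 0.22), but was called higher at day 7 with library totals alone. Fli1, an ETS factor of endothelium and blood cells, rose at day 7 (0.25 ± 0.09 SE, adjusted p = 0.0354, edgeR). That call was lost without any 1 of MI replicates 1, 4 and 5 and sham replicates 1, 3 and 4 (0.20 to 0.28), without the lung libraries (0.22, adjusted p = 0.258), in DESeq2 and with no filter on low counts. All 6 of 6 leukocyte markers were higher at day 7, with sums of 266 to 497 CPM in MI and 95.8 to 167 CPM in sham libraries, and their part in the Fli1 value was not tested. Ets1, a further ETS factor, passed at no day (-0.13, 0.15 and 0.04), but was called higher at day 4 with library totals alone.

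Of the 6 capillary metabolic genes, 4 fell and 1 rose at day 2, 4 fell at day 4 and 3 fell at day 7, with median log2 fold changes of -0.58, -0.77 and -0.54. Aqp7, an aquaglyceroporin that also carries glycerol, had the largest fold size, and Fabp4, the fatty acid binding protein with the highest level of all 40 genes per kilobase (125 CPM), was called at no day. At day 2 Fabp4 read 557, 544, 509, 533 and 606 CPM in MI libraries 1 to 5, against 451, 455, 624, 460 and 572 CPM in sham libraries 1 to 5. At day 4 Fabp4 read 499, 508, 445, 604 and 408 CPM in MI libraries 1 to 5, against 726, 606, 559, 493 and 433 CPM in sham libraries 1 to 5. At day 7 Fabp4 read 797, 458, 485, 586 and 817 CPM in MI libraries 1 to 5, against 651, 659, 878, 506 and 439.7 CPM in sham libraries 1 to 5. The Fabp4 groups overlapped at each day and both spread widely at day 7. The log2 fold changes of Fabp4 (ENSMUSG00000062515, chr3:10204088-10208576) were 0.12, -0.18 and 0.00 at days 2, 4 and 7 (SE 0.10, 0.14 and 0.21; adjusted p in edgeR = 0.34, 0.301 and 1.0). Adipocytes express Fabp4 as well. The 6 adipocyte markers summed to 6.68 to 35.8 CPM in MI and 10.2 to 33.4 CPM in sham libraries at day 2, to 8.15 to 159 CPM in MI and 17.9 to 689 CPM in sham libraries at day 4 and to 87.4 to 456 CPM in MI and 90.9 to 509 CPM in sham libraries at day 7, with their highest value in sham day 4 replicate 3, a library with lung transcripts. Without the lung libraries the Fabp4 log2 fold change at day 7 was 0.48, adjusted p = 0.157 in edgeR.

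The sequences from 250 bases before to 50 bases after the start of Aqp1 and Car4, which fell at all 3 days, are shown because they are the capillary genes whose promoters held a searched motif. They are from RefSeq in GRCm38.p6, at chr6:55336049-55336348 for Aqp1 and chr11:84957504-84957803 for Car4, both on the plus strand. Capitals mark TGGGAA, the core recognised by the Notch effector RBPJ, and CCGGAAG, an ETS core, or their reverse complements.
Aqp1: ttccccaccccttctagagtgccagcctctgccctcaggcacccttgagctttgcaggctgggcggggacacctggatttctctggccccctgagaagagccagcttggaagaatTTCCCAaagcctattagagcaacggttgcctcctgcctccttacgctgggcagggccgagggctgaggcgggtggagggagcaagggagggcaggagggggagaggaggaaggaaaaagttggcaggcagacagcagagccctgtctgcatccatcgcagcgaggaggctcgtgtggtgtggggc
Car4: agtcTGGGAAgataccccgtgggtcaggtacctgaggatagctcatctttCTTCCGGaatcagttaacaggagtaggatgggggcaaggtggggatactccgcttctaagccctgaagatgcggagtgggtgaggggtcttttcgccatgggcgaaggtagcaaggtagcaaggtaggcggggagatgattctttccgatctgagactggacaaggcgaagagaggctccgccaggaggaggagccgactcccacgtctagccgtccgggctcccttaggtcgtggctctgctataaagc
Of the 40 genes 22 had a promoter in the RefSeq table, some with several starts. On either strand TGGGAA occurred in 8 of their 28 promoters (28.6%) and in 25.6% of all 32851 promoters, and CCGGAAG occurred in 2 of the 28 (7.14%) and in 8.86% of all. AACAAT, the core bound by SOX factors, occurred in 3 of the 28 (10.7%) and in 10.7% of all. A match of letters is a description and no measured site.

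At day 2 Aqp7 read 9.27, 13.2, 11.8, 12.6 and 8.25 CPM in MI libraries 1 to 5, against 22.5, 26.1, 23.6, 26.4 and 24.1 CPM in sham libraries 1 to 5. At day 4 Aqp7 read 8.18, 16.1, 9.39, 10.1 and 9.19 CPM in MI libraries 1 to 5, against 36.4, 28.6, 27.1, 32.2 and 39.9 CPM in sham libraries 1 to 5. At day 7 Aqp7 read 10.04, 11.7, 5.49, 10.8 and 19.1 CPM in MI libraries 1 to 5, against 30.2, 32.7, 31.6, 30.3 and 26.1 CPM in sham libraries 1 to 5. Every MI library lay below every sham library of its day, and MI day 4 replicate 2 and MI day 7 replicate 5 were the highest MI libraries of their days. Aqp7 (ENSMUSG00000028427, chr4:41033074-41048139) fell on the log2 scale, with values of -1.13, -1.62 and -1.41 (SE 0.12, 0.17 and 0.24; adjusted p in edgeR = 5.59e-06, 2.64e-06 and 0.000294). In the heart Aqp7 is known in myocytes and adipocytes as well as in capillaries. Of 6 cardiomyocyte markers 4, 5 and 5 were lower in MI at days 2, 4 and 7, with sums of 30400 to 37000 CPM in MI and 45200 to 54300 CPM in sham libraries at day 2, 26800 to 35700 CPM in MI and 51000 to 61100 CPM in sham libraries at day 4 and 25700 to 32000 CPM in MI and 42500 to 56500 CPM in sham libraries at day 7. Their part in the fall was not tested.

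Car4, a carbonic anhydrase held on the capillary surface (ENSMUSG00000000805, chr11:84957786-84966044), had its largest fold size at day 4. At day 2 Car4 read 10.7, 13.2, 14.7, 16.6 and 13.6 CPM in MI libraries 1 to 5, against 19.8, 25.9, 26.8, 19.7 and 24.6 CPM in sham libraries 1 to 5. At day 4 Car4 read 3.85, 8.68, 6.78, 5.25 and 4.51 CPM in MI libraries 1 to 5, against 20.2, 19.6, 8.91, 16.4 and 12.4 CPM in sham libraries 1 to 5. At day 7 Car4 read 7.93, 12.8, 5.72, 5.20 and 8.17 CPM in MI libraries 1 to 5, against 14.0, 16.4, 16.9, 17.2 and 10.6 CPM in sham libraries 1 to 5. The groups stood apart at day 2, were separated by a narrow gap at day 4 and overlapped at day 7 through MI replicate 2, a library with lung transcripts. Its log2 fold changes were -0.74, -1.399 and -0.92 (SE 0.13, 0.25 and 0.23; adjusted p in edgeR = 0.000263, 0.000349 and 0.00415).

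Aqp1, the water channel of capillary endothelium and red cells, averaged 244 ± 35.5 CPM in MI, against 456 ± 45.0 CPM in sham libraries at day 2, 215 ± 21.3 CPM in MI, against 398 ± 95.2 CPM in sham libraries at day 4 and 221 ± 31.1 CPM in MI, against 426 ± 48.4 CPM in sham libraries at day 7 (SD, n = 5 each). It fell at each day, by log2 fold changes of -0.88, -0.88 and -0.95 (adjusted p in edgeR = 1.23e-05, 0.000282 and 3.13e-05). Of the erythroid markers tested, 4 of 5 were higher in MI at day 2 and 5 of 5 at day 7 in edgeR, and at day 4 0 of 6 passed in edgeR and in DESeq2, with 0 at an unadjusted p under 0.05 in both. The sum of the 6 was 282 to 1080 CPM in MI and 130 to 315 CPM in sham libraries at day 2, 1040 to 2330 CPM in MI and 768 to 3700 CPM in sham libraries at day 4 and 1600 to 5210 CPM in MI and 856 to 1610 CPM in sham libraries at day 7. Their part in the Aqp1 values was not tested. Rgcc, a cell cycle regulator enriched in cardiac capillaries, fell at days 2 and 4 (-0.43 ± 0.11 SE, adjusted p = 0.00514 at day 2 and -0.66 ± 0.11 SE, adjusted p = 0.00013 at day 4, edgeR) and not at day 7 (-0.16). Gpihbp1, which anchors lipoprotein lipase to the capillary wall, rose at day 2 (0.35 ± 0.11 SE, adjusted p = 0.0167, edgeR), a call lost in the fit of all 30 libraries, and had log2 fold changes of 0.09 and 0.28 at days 4 and 7.

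Set against the pan-endothelial genes of the same library, the summed level of the 6 capillary genes was 56.0 to 68.9% of the pan-endothelial sum in MI and 60.8 to 89.0% in sham libraries at day 2. At day 4 this was 38.5 to 57.7% in MI and 63.0 to 85.7% in sham libraries. At day 7 it was 42.8 to 74.6% in MI and 67.1 to 99.8% in sham libraries. The ranges did not meet at day 4 and overlapped at days 2 and 7. Fabp4 and Aqp1 make up most of this sum. The highest value at day 7 was in sham replicate 3, which also had the highest adipocyte sum of that day and held lung transcripts.

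**Figure D3:**
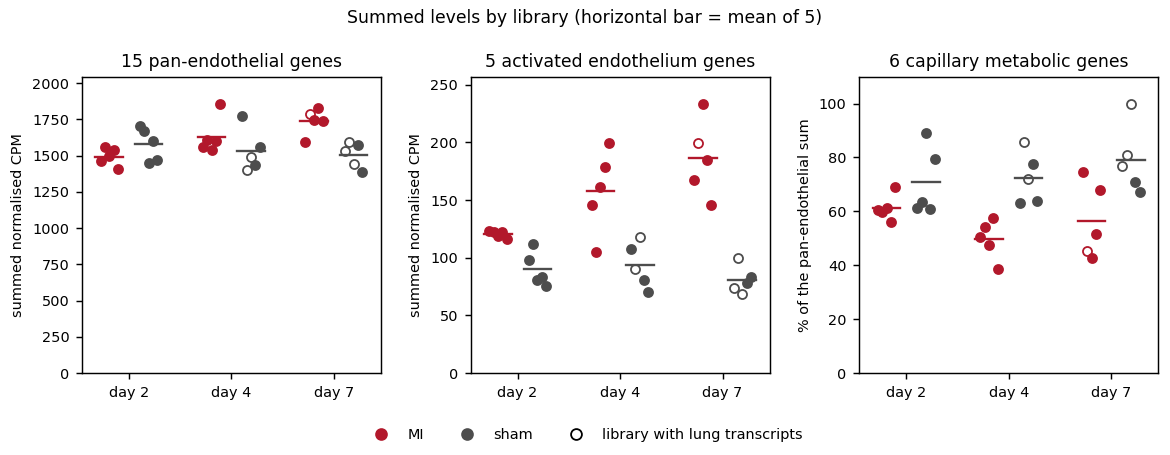
Summed TMM-scaled CPM of 15 pan-endothelial genes (left) and 5 activated endothelium genes (middle), and the sum of 6 capillary genes as a percent of the pan-endothelial sum (right), 1 point per library with a bar at the mean of 5. Red is MI, grey is sham, and open points are the 6 libraries with lung transcripts. Activated sums are 145 to 233 CPM in MI and 68.9 to 99.8 CPM in sham libraries at day 7, and the capillary share at day 4 is lower in every MI library.

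Of the 5 activated endothelium genes, 3 rose at day 2, 4 at day 4 and 5 at day 7. Their median log2 fold changes were 0.48, 0.86 and 1.35 at days 2, 4 and 7, beside about 0 for all genes. The genes passed the test at different days: Selp and Sele, which encode P- and E-selectin for the first capture of leukocytes, rose from day 2 on, while Icam1 and Vcam1, the ligands of leukocyte integrins, did so later. Leukocyte markers moved with this group, with all 6 of 6 higher at each day and sums of 285 to 396 CPM in MI and 114 to 186 CPM in sham libraries at day 2, 395 to 511 CPM in MI and 120 to 218 CPM in sham libraries at day 4 and 266 to 497 CPM in MI and 95.8 to 167 CPM in sham libraries at day 7. Some leukocytes express Icam1 and Vcam1, and the part of these cells was not tested. Fibroblast markers were also higher at day 7, 6 of 6, and the part of fibroblasts was not tested either.

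Promoters of Icam1, Sele and Selp are shown as those of the activated genes present in the RefSeq table, at chr9:21015690-21015989 for Icam1, chr1:164047984-164048283 for Sele and chr1:164115014-164115313 for Selp in GRCm38.p6, plus strand. Capitals mark GGANTTTCC, an NF-kB core, or its reverse complement in Icam1, and the reverse complement of the RBPJ core in Sele.
Icam1: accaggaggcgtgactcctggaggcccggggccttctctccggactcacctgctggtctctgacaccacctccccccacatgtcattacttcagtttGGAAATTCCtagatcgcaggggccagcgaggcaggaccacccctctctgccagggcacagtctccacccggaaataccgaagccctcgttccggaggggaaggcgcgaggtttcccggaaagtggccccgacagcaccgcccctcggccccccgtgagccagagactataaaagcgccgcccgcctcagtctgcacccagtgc
Sele: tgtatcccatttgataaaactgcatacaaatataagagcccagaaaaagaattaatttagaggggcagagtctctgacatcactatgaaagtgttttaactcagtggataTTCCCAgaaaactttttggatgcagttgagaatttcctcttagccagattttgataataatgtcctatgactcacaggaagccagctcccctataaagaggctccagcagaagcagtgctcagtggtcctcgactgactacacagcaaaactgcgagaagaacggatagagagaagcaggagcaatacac
Selp: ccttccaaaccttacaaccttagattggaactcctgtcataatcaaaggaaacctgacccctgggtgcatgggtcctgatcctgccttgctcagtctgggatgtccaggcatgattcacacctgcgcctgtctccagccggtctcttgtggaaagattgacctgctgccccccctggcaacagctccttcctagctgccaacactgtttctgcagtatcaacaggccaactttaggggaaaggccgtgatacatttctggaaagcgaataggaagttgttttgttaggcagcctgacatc
GGANTTTCC occurred on either strand in 1 of the 28 member promoters, that of Icam1, and in 1.25% of all 32851. Other spellings of an NF-kB core were not searched, in Sele and Selp included. None of the 4 motifs was found in the Selp window, and no 2 matches overlapped in the promoters shown.

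At day 2 Selp read 18.9, 8.61, 11.3, 19.9 and 9.48 CPM in MI libraries 1 to 5, against 2.63, 6.43, 2.62, 3.21 and 2.56 CPM in sham libraries 1 to 5. At day 4 Selp read 9.59, 3.04, 6.95, 16.3 and 9.43 CPM in MI libraries 1 to 5, against 2.47, 2.42, 3.47, 1.12 and 2.72 CPM in sham libraries 1 to 5. At day 7 Selp read 7.29, 4.12, 10.4, 5.82 and 5.41 CPM in MI libraries 1 to 5, against 2.39, 1.80, 2.53, 0.946 and 2.35 CPM in sham libraries 1 to 5. Every MI library exceeded every sham library at days 2 and 7, and at day 4 MI replicate 2 fell within the sham range. The MI level was highest at day 2 and the sham libraries were low throughout, apart from sham day 2 replicate 2. Selp (ENSMUSG00000026580, chr1:164115264-164150026) rose, with log2 values of 1.97, 1.90 and 1.70 (SE 0.31, 0.41 and 0.29; adjusted p in edgeR = 0.000227, 0.00192 and 0.000256), fold sizes of 3.91, 3.74 and 3.24. P-selectin is also a platelet protein, and the platelet marker sums given with Vwf were higher in MI at days 2 and 4, with a part in the Selp value that was not tested.

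Sele (ENSMUSG00000026582, chr1:164048234-164057677), which is restricted to activated endothelium in most tissues, had the lowest level per kilobase of the 5 genes, 1.16 CPM. At day 2 Sele read 4.19, 5.35, 5.62, 4.07 and 5.50 CPM in MI libraries 1 to 5, against 2.34, 3.18, 0.935, 2.45 and 2.18 CPM in sham libraries 1 to 5. At day 4 Sele read 4.89, 5.46, 4.87, 4.43 and 6.65 CPM in MI libraries 1 to 5, against 2.13, 2.19, 1.97, 1.90 and 1.77 CPM in sham libraries 1 to 5. At day 7 Sele read 4.76, 4.22, 4.41, 3.80 and 3.74 CPM in MI libraries 1 to 5, against 2.203, 1.46, 1.38, 1.76 and 1.24 CPM in sham libraries 1 to 5. No sham library reached the lowest MI library of its day. The log2 fold changes were 1.16, 1.41 and 1.35 (SE 0.24, 0.18 and 0.21; adjusted p in edgeR = 0.000992, 1.29e-05 and 0.000117).

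Plvap, which forms the diaphragms of fenestrae and caveolae (ENSMUSG00000034845, chr8:71497765-71511752), had the highest level per kilobase of the group, 24.4 CPM. At day 2 Plvap read 40.9, 49.5, 48.8, 41.0 and 44.9 CPM in MI libraries 1 to 5, against 34.0, 39.0, 31.6, 28.3 and 30.4 CPM in sham libraries 1 to 5. At day 4 Plvap read 61.6, 37.1, 66.8, 79.3 and 77.5 CPM in MI libraries 1 to 5, against 33.7, 39.3, 51.7, 30.2 and 24.4 CPM in sham libraries 1 to 5. At day 7 Plvap read 69.1, 86.1, 104, 81.9 and 63.6 CPM in MI libraries 1 to 5, against 31.1, 39.1, 26.4, 31.2 and 30.3 CPM in sham libraries 1 to 5. The groups stood apart at days 2 and 7, and at day 4 MI replicate 2 lay among the sham libraries while sham replicate 3, which held lung transcripts, was the highest sham library. Plvap rose, the log2 fold changes being 0.48, 0.86 and 1.35 (SE 0.10, 0.24 and 0.13; adjusted p in edgeR = 0.000983, 0.00965 and 5.83e-06). Without the lung libraries the day 4 value was 1.15, adjusted p = 0.00177 in edgeR.

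Vcam1 averaged 53.7 ± 13.0 CPM in MI, against 32.8 ± 7.24 CPM in sham libraries at day 4 and 62.4 ± 12.4 CPM in MI, against 29.2 ± 3.44 CPM in sham libraries at day 7 (SD, n = 5 each). It rose at day 4 (0.73 ± 0.18 SE, adjusted p = 0.0038, edgeR) and at day 7 (1.09 ± 0.13 SE, adjusted p = 1.79e-05, edgeR). At day 2 its log2 fold change was 0.24, and it passed the threshold without sham replicate 2 (highest value 0.36). Icam1 averaged 32.1 ± 7.13 CPM in MI, against 16.3 ± 5.66 CPM in sham libraries at day 7 (SD, n = 5 each) and rose there (0.97 ± 0.21 SE, adjusted p = 0.00166, edgeR). Its log2 fold change was 0.01 at day 2 and 0.34 at day 4, where it passed without any 1 of MI replicate 2 and sham replicates 1 and 3 (highest value 0.45).

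Among the 4 Notch genes, 1 rose and 1 fell at day 2, 1 rose at day 4 and 1 rose at day 7. Dll4, the ligand of tip cells and arteries (ENSMUSG00000027314, chr2:119325784-119335962), rose at day 2 and Jag1, another ligand, at days 4 and 7. At day 2 Dll4 read 30, 30.1, 31.1, 37.8 and 27.0 CPM in MI libraries 1 to 5, against 25.1, 25.7, 22.3, 13.8 and 23.5 CPM in sham libraries 1 to 5. At day 4 Dll4 read 26.3, 33.5, 28.2, 28.9 and 29.5 CPM in MI libraries 1 to 5, against 33.8, 28.0, 29.97, 23.3 and 31.3 CPM in sham libraries 1 to 5. At day 7 Dll4 read 19.0, 29.3, 22.4, 31.0 and 27.5 CPM in MI libraries 1 to 5, against 27.7, 23.7, 25.1, 22.6 and 27.9 CPM in sham libraries 1 to 5. At day 2 the MI values lay just above the sham values, with sham replicate 4 far below the rest, and at days 4 and 7 the groups overlapped. The log2 fold changes of Dll4 were 0.52, 0.01 and 0.02 (SE 0.15, 0.11 and 0.13; adjusted p in edgeR = 0.00857, 0.929 and 0.911).

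At day 2 Jag1 read 16.1, 20.2, 17.6, 13.8 and 12.2 CPM in MI libraries 1 to 5, against 15.4, 17.6, 10.5, 14.4 and 13.4 CPM in sham libraries 1 to 5. At day 4 Jag1 read 27.2, 24.4, 25.2, 20.6 and 29.8 CPM in MI libraries 1 to 5, against 22.5, 16.6, 25.3, 18.4 and 19.7 CPM in sham libraries 1 to 5. At day 7 Jag1 read 30.6, 26.4, 39.4, 32.5 and 26.8 CPM in MI libraries 1 to 5, against 17.9, 20.6, 15.5, 16.5 and 17.8 CPM in sham libraries 1 to 5. For Jag1 (ENSMUSG00000027276, chr2:137081456-137116644) the groups overlapped at days 2 and 4 and stood apart at day 7. Log2 fold changes were 0.19, 0.32 and 0.81 (SE 0.15, 0.13 and 0.12; adjusted p in edgeR = 0.337, 0.0442 and 9.37e-05). The day 4 call was lost without any 1 of MI replicates 1, 2, 3 and 5 and sham replicates 2, 4 and 5 (0.26 to 0.42), in DESeq2, with median-ratio factors and in the fit of all 30 libraries. Hey1, a transcriptional target of Notch, fell at day 2 (-0.41 ± 0.13 SE, adjusted p = 0.0187, edgeR), a call lost without any 1 of MI replicate 1 and sham replicate 5 (-0.51 to -0.35) or with library totals alone. At days 4 and 7 its log2 fold changes were -0.02 and 0.03. Notch1, the receptor, was called at no day (-0.20, 0.13 and 0.13), and it passed as lower at day 2 without sham replicate 3 (lowest value -0.27). With library totals alone Notch1 was called higher at day 7.

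The 4 lymphatic genes moved apart: Pdpn rose and Prox1 fell at every day, Reln fell at day 2 alone and Mmrn1 passed at no day. Pdpn encodes podoplanin, a mucin-like protein of lymphatic endothelium, of fibroblasts after injury and of alveolar epithelium (ENSMUSG00000028583, chr4:143267431-143299564). At day 2 Pdpn read 35.4, 52.7, 36.5, 31.4 and 40.1 CPM in MI libraries 1 to 5, against 15.5, 23.8, 20.9, 18.2 and 12.7 CPM in sham libraries 1 to 5. At day 4 Pdpn read 48.1, 27.3, 43.5, 42.9 and 45.6 CPM in MI libraries 1 to 5, against 13.2, 19.6, 23.1, 14.1 and 9.33 CPM in sham libraries 1 to 5. At day 7 Pdpn read 50.6, 45.5, 33.1, 45.9 and 28.4 CPM in MI libraries 1 to 5, against 13.5, 23.8, 13.9, 10.5 and 13.4 CPM in sham libraries 1 to 5. MI values exceeded sham values without overlap at every day, and the highest sham values of days 4 and 7 were in libraries with lung transcripts. Pdpn rose, the log2 fold changes being 1.13, 1.396 and 1.43 (SE 0.17, 0.23 and 0.22; adjusted p in edgeR = 9.6e-05, 0.000276 and 0.00011). Without the lung libraries they were 1.78, adjusted p = 7.45e-06 at day 4 and 1.69, adjusted p = 0.00183 at day 7 in edgeR. Of the 6 fibroblast markers, 2 were lower at day 2, 3 higher and 1 lower at day 4 and 6 higher at day 7 in edgeR. Their sums were 1160 to 1640 CPM in MI and 1130 to 2230 CPM in sham libraries at day 2 and 3790 to 7260 CPM in MI and 1760 to 3390 CPM in sham libraries at day 4, and their part in Pdpn was not tested.

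At day 2 Prox1 read 53.5, 68.6, 59.9, 73.5 and 57.7 CPM in MI libraries 1 to 5, against 111, 128, 99.4, 138 and 135 CPM in sham libraries 1 to 5. At day 4 Prox1 read 46.1, 62.6, 53.3, 47.2 and 54.0 CPM in MI libraries 1 to 5, against 97.9, 95.5, 93.4, 110.1 and 147 CPM in sham libraries 1 to 5. At day 7 Prox1 read 37.8, 70.9, 39.6, 46.9 and 65.5 CPM in MI libraries 1 to 5, against 126, 111, 99.5, 111 and 145 CPM in sham libraries 1 to 5. Every MI library lay below every sham library of its day. Prox1 (ENSMUSG00000010175, chr1:190118035-190170714), which specifies lymphatic fate and is also expressed by cardiomyocytes, fell, the log2 fold changes being -0.94, -1.03 and -1.19 (SE 0.11, 0.13 and 0.18; adjusted p in edgeR = 7.93e-06, 8.64e-06 and 0.000113). The cardiomyocyte markers given with Aqp7 were lower in the same libraries, and their part in the fall of Prox1 was not tested. Reln, a glycoprotein secreted by lymphatic endothelium, averaged 3.07 ± 0.932 CPM in MI, against 5.14 ± 0.541 CPM in sham libraries at day 2 (SD, n = 5 each; -0.70 ± 0.19 SE, adjusted p = 0.00714, edgeR), and its log2 fold changes were -0.36 and 0.06 at days 4 and 7. Mmrn1, the adhesive protein multimerin of lymphatic endothelium and platelets, had -0.37, -0.35 and 0.13 at days 2, 4 and 7. It passed as lower at day 2 without any 1 of MI replicate 4 and sham replicate 1 (lowest -0.50), and at day 4 without sham replicate 2 (lowest -0.43) or without all lung libraries (-0.43, adjusted p = 0.0395, edgeR). Mmrn1 also passed as lower at days 2 and 4 in the fit of all 30 libraries, and at day 4 with median-ratio factors.

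The effect of MI changed between days 2 and 7 for 9 of the 40 genes, and 8 of the 9 differences were towards higher values at day 7. In the fit of all 30 libraries these 8 stood beside 10.1% of 15537 genes with a difference in that direction and the 1 in the other beside 9.11%. Plvap, Vcam1 and Icam1 of the activated group had differences of 0.89 ± 0.25 SE, adjusted p = 0.0106, 0.88 ± 0.24 SE, adjusted p = 0.0092 and 0.99 ± 0.24 SE, adjusted p = 0.00438 (log2, day 7 minus day 2, edgeR). Vwf (0.91), Clec14a (0.69), Cd34 (0.55) and Ptprb (0.49) of the pan-endothelial group and Jag1 (0.65) of the Notch group also gained. Nos3 was the 1 gene with a difference below 0, -0.45 ± 0.13 SE, adjusted p = 0.0127 in edgeR: it averaged 42.3 ± 3.74 CPM in MI, against 33.9 ± 2.73 CPM in sham libraries at day 2 and 35.7 ± 4.80 CPM in MI, against 39.1 ± 3.29 CPM in sham libraries at day 7 (SD, n = 5 each). Selp (-0.25), Sele (0.22) and the capillary genes, from -0.26 for Aqp7 to 0.29 for Rgcc, did not pass this test.

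Of these differences the higher ones numbered 5 when sham day 2 replicate 2, MI day 2 replicate 5 or MI day 7 replicate 3 was left out, and 5 without the lung libraries. Vwf was lost without any 1 of MI day 2 replicates 1, 2 and 5, MI day 7 replicate 3, sham day 2 replicates 1, 2, 4 and 5 and sham day 7 replicates 2, 3 and 5 (0.60 to 1.04), Ptprb without any 1 of MI day 2 replicate 5 and MI day 7 replicate 3 (0.42 to 0.53), Cd34 without any 1 of MI day 7 replicate 4 and sham day 2 replicate 2 (0.46 to 0.64) and Jag1 without any 1 of MI day 2 replicate 5, MI day 7 replicate 3 and sham day 2 replicate 2 (0.54 to 0.74). With no filter on low counts Vwf and Ptprb did not pass. Without the lung libraries Vwf, Ptprb, Vcam1 and Nos3 no longer passed, with adjusted p of 0.111 for Vwf, 0.0879 for Ptprb, 0.0865 for Vcam1 and 0.0575 for Nos3 in edgeR. That fit held only sham replicates 4 and 5 at day 7. Reln joined the higher differences without any 1 of MI day 2 replicate 4 and MI day 7 replicate 1 (highest value 1.004) and Mmrn1 without any 1 of MI day 2 replicate 4 and sham day 7 replicate 2 (highest value 0.64). Dll4 joined Nos3 without MI day 7 replicate 4 (lowest value -0.57). From day 2 to day 4 the effect differed for 0 of 40 members in each direction, beside 2.51% of all genes with a higher and 2.29% with a lower value. From day 4 to day 7 it differed for 0, beside 0.702% higher and 0.315% lower. At an unadjusted p under 0.05 there were 6 members for days 2 and 4 and 8 for days 4 and 7 in edgeR, and 4 and 8 in DESeq2, which also called 0 in both. Eng passed as higher at day 4 relative to day 2 without sham day 4 replicate 1 (0.48), and Icam1 at day 7 relative to day 4 without sham day 7 replicate 2 (0.89).

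**Figure D4:**
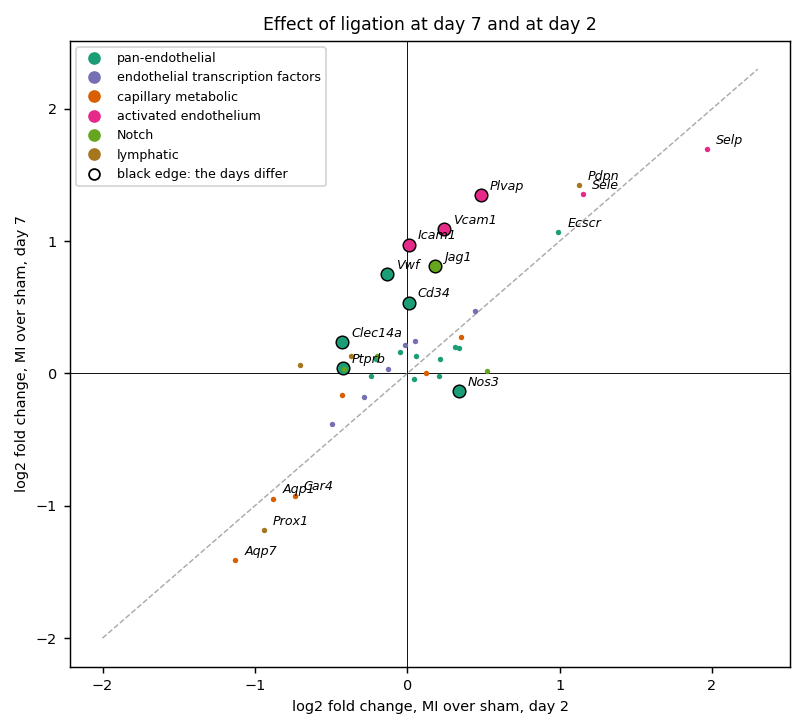
Log2 fold change of MI over sham at day 7 (y axis) against day 2 (x axis) for the 40 genes, coloured by role, with equal effects on the dashed line. A black edge marks the 9 genes whose effect differed between the days in edgeR: Plvap, Vcam1, Icam1, Vwf, Clec14a, Cd34, Ptprb and Jag1 lie above the line and Nos3 below it.

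Genes outside the 40 were read from 6 lists of related genes, with no test of a list as a whole. The counts of each list stand beside the shares of all genes tested. These were 24.1%, 27.5% and 28.4% higher and 22.2%, 25.2% and 26.6% lower at days 2, 4 and 7. Of 25 other endothelial genes, 2 were higher and 12 lower at day 2, 3 and 11 at day 4 and 3 and 10 at day 7 (medians -0.24, -0.23 and -0.16). Kdr, the main VEGF receptor of endothelium, was lower at day 7 (-0.79 ± 0.19 SE, adjusted p = 0.0031, edgeR), Gata2, a transcription factor of endothelium and blood progenitors, was lower at day 4 (-0.74 ± 0.11 SE, adjusted p = 7.54e-05, edgeR), and Cd93, an endothelial and myeloid receptor, was higher at day 4 (0.79 ± 0.11 SE, adjusted p = 2.68e-05, edgeR). Of 10 tip cell and sprouting genes, 7, 8 and 8 were higher at days 2, 4 and 7 and 1 was lower at day 2, with medians of 1.20, 0.97 and 1.12. Kcne3, a potassium channel subunit of tip cells (2.57 ± 0.45 SE, adjusted p = 0.000289), Pgf, placental growth factor (2.01 ± 0.22 SE, adjusted p = 7.27e-06), and Cxcr4, a chemokine receptor of tip cells and leukocytes (1.99 ± 0.15 SE, adjusted p = 2.26e-07), had their largest fold changes at day 2 (edgeR). Lamb1, a laminin chain, was the gene that fell (-0.38 at day 2). The fallers named here and in the other lists were added after their values were seen.

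Of the arterial and venous genes, 2 of 11 were higher and 2 lower at day 2, 2 of 12 higher and 2 lower at day 4, and 5 of 12 higher at day 7. Unc5b, a netrin receptor of arteries (1.46 ± 0.17 SE, adjusted p = 1.63e-05), Ackr1, the venular chemokine receptor (1.22 ± 0.41 SE, adjusted p = 0.0226), and Gja4, the arterial connexin (1.13 ± 0.11 SE, adjusted p = 4.93e-06), rose at day 7 (edgeR). Bmx (-0.56) and the venous receptor Ephb4 (-0.32) fell at day 2, and Hey2 (-0.64), a Notch effector, and Sema3g (-0.33), a semaphorin, fell at day 4. Other Notch pathway genes were higher for 5, 5 and 8 of 14 and lower for 2, 3 and 1 at days 2, 4 and 7. Lfng, which modifies Notch receptors (1.404 ± 0.15 SE, adjusted p = 3.48e-06 at day 4), Notch2 (1.05 ± 0.18 SE, adjusted p = 0.000267 at day 7) and Notch3, a receptor of mural cells (0.75 ± 0.18 SE, adjusted p = 0.0036 at day 7), rose (edgeR). The ligand Jag2 fell at all 3 days (-0.31, -0.58 and -0.55), the ligand Dll1 at days 2 and 4 (-0.41 and -0.60), and Hey2, on both lists, at day 4.

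Other capillary lipid genes were mixed, with 3, 4 and 4 of 12 higher and 3, 5 and 4 lower. Angptl4, a secreted inhibitor of lipoprotein lipase (2.79 ± 0.33 SE, adjusted p = 4.42e-05 at day 2), Fabp5, a relative of Fabp4 (1.57 ± 0.14 SE, adjusted p = 5.15e-07 at day 4), and Slc27a3, of the fatty acid transport family (1.53 ± 0.24 SE, adjusted p = 0.000155 at day 7), rose (edgeR). Tcf15, a transcription factor of capillary endothelium, Btnl9 and Lpl, lipoprotein lipase, fell at all 3 days, with day 7 values of -0.90 for Tcf15, -0.95 for Btnl9 and -0.91 for Lpl (adjusted p in edgeR 0.00233 for Tcf15, 0.000715 for Btnl9 and 2.33e-05 for Lpl). Cd36, the fatty acid translocase, fell at days 4 and 7 (-0.92 and -0.88), and Timp4, a metalloproteinase inhibitor, at day 4 (-1.02). Other lymphatic genes were higher for 2, 4 and 6 of 10 at days 2, 4 and 7 and lower for 1 at day 2. Foxc2, a factor of lymphatic valves (1.68 ± 0.23 SE, adjusted p = 2.38e-05 at day 4), Fxyd6, an ion pump regulator (1.57 ± 0.11 SE, adjusted p = 6.26e-07 at day 7), and Vegfd, a growth factor for lymphatic endothelium (1.38 ± 0.22 SE, adjusted p = 0.000164 at day 7), rose (edgeR). Tbx1, a T-box factor, fell at day 2 (-1.28).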

How the data were processed

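Heart RNA was turned into directional libraries and sequenced as paired reads, per the labels' protocols. Each library has 1 deposited file of unnormalised read counts for Ensembl genes. Per the submitters' processing notes, the authors' tools included featureCounts and bcl2fastq 2.20.0, with the build GRCm38. Neither an aligner nor a strand setting is given in the sources at hand. Symbols, positions and exon lengths came from a GRCm38 annotation that names 97.3% of the 43629 identifiers, and promoters from RefSeq.

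Groups follow the labels. MI and sham were compared within each day in a fit of 10 libraries, and the effects of 2 days in 1 fit of all 30, with edgeR 4.0.16 (filterByExpr minimum count 10 and total 15, TMM factors, robust quasi-likelihood F test, 2-sided). A gene was called where its p, adjusted across the genes tested by Benjamini-Hochberg, was under 0.05. The edgeR test gives no SE. The SE printed and drawn is the absolute log2 fold change divided by the square root of F, an approximation. Levels are CPM with TMM factors over all 30 libraries, except the lung sum, which is CPM of the plain library total. Lung libraries had at least 50 CPM of Sftpc and Scgb1a1. Limits from a count of 0 cover counting error only.

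The 40 members, their roles, the lists and markers were chosen with earlier results of these data known. All members are named. Values of every library are given for the member of each role with the highest level per kilobase and the 2 with the largest called change, and the up to 3 called genes with the largest change are named per list, plus genes that fell, added after their values were seen. Alternatives were median-ratio factors, DESeq2 1.42.0, no filter on low counts, a replicate block, all 30 libraries in 1 fit, leaving out each library, and leaving out the lung libraries. Scaling by library totals alone was added after seeing the data. Figures were drawn with matplotlib 3.10.9.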

Additional observations from a re-analysis of the deposited data

Results flagged for a closer look

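In groups of 5 libraries, 12 of 240 member groups had 1 library far from the other 4, about the 1 in 20 that chance gives. Vwf read 241 CPM in MI day 7 replicate 3 (next 126 CPM) and 70.3 CPM, the lowest, in sham day 2 replicate 3 (next 93.8 CPM). Ecscr read 54.2 CPM in MI day 7 replicate 1 (next 35.5 CPM). Pdpn read 27.3 CPM, the lowest, in MI day 4 replicate 2 (next 42.9 CPM) and 23.8 CPM in sham day 7 replicate 2 (next 13.9 CPM), a library with lung transcripts. Aqp7 read 16.1 CPM in MI day 4 replicate 2 (next 10.1 CPM), and Gpihbp1 65.7 CPM, the lowest, in MI day 2 replicate 2 (next 72.0 CPM). Among sham libraries, Selp read 6.43 CPM in day 2 replicate 2 (next 3.21 CPM), Rgcc 35.5 CPM in day 4 replicate 2, which held lung transcripts (next 28.6 CPM), Dll4 13.8 CPM, the lowest, in day 2 replicate 4 (next 22.3 CPM), and in day 4 replicate 1 Esam read 74.8 CPM (next 60.6 CPM) and Hey1 19.3 CPM (next 14.2 CPM). MI day 4 replicate 2, low in Pdpn and high in Aqp7, also had the lowest activated endothelium sum of the MI day 4 libraries, 105 CPM.

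The effect of MI differed between days 7 and 2 for 9 genes by the interaction in edgeR. The log2 differences were 0.99 for Icam1, 0.91 for Vwf, 0.89 for Plvap, 0.88 for Vcam1, 0.69 for Clec14a, 0.65 for Jag1, 0.55 for Cd34, 0.49 for Ptprb and -0.45 for Nos3 (adjusted p = 0.00438 for Icam1, 0.0403 for Vwf, 0.0106 for Plvap, 0.0092 for Vcam1, 0.00467 for Clec14a, 0.022 for Jag1, 0.0199 for Cd34, 0.0214 for Ptprb and 0.0127 for Nos3).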

How the results depend on the processing

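No member's call reversed under any alternative run. Members called higher and lower ranged from 10 to 12 and 9 to 13 at day 2, 8 to 12 and 5 to 7 at day 4, and 11 to 13 and 4 to 5 at day 7 over the libraries left out in turn. For the difference between days 7 and 2 they ranged from 5 to 10 and 1 to 2. The higher calls ranged from 0 to 1 for days 4 and 2 (Eng, without sham day 4 replicate 1) and from 0 to 1 for days 7 and 4 (Icam1, without sham day 7 replicate 2). Without the lung libraries 8 members were lower at day 4, with Clec14a, Mmrn1 and Ptprb added, and the difference between days 7 and 2 was higher for 5 and lower for 0. DESeq2 gave 2 lower there, with Dll4 added. With library totals alone 20 members were higher at day 4 and 21 at day 7. Added at day 4 were Cd34, Cdh5, Emcn, Esam, Ets1, Fli1, Icam1, Nos3, Pecam1 and Robo4. Added at day 7 were Clec14a, Egfl7, Emcn, Esam, Gpihbp1, Icam2, Notch1, Pecam1 and Sox17.

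Replicate numbers did not pair the samples: MI and sham deviations of the same number correlated above 0.1 in 5 of 15 pairs, and 3 correlated best with their own number. With a replicate block 13 members were higher and 13 lower at day 2, 10 and 5 at day 4, 11 and 4 at day 7, and 8 and 1 for days 7 and 2. The replicate block lost Fli1 at day 7 and Vwf for days 7 and 2, and it added Mmrn1, Sox18 and Vcam1 at day 2 and Hey1 for days 7 and 2. Depth limits Sele and Selp most, with at least 9 and 7 counts per library.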
